A study of Vuilleminia comedens with 3 samples.

Results

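Transcripts of central sugar metabolism were examined in Vuilleminia comedens, a fungus whose thin crusts grow on dead branches of broadleaved trees. They were chosen by the product names of their best database matches, using 15 words or phrases for enzymes of glycolysis, the pentose phosphate pathway and pyruvate decarboxylation. Names with "transporter" were left out. This rule took 106 of the 22605 transcripts with a match, out of 81106 assembled transcripts, and the 106 belonged to 90 assembler genes, the assembler's groups of isoforms. The rule itself reads names and no measured value.

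All 3 libraries came from 1 group, strain VcWVJH1 grown on autoclaved beech blocks. The blocks were first colonised on malt extract plates, then placed face to face with a block of the same strain for 7 days at 20 °C, and mRNA was isolated from the wood nearest to the contact. The labels name 1 strain and no other treatment, so there was no second condition to compare with. The count columns carry no sample names and are called libraries A, B and C. Library A held 111754018 counts, library B 68151997 and library C 64236917, of which 68.8% ± 1.59 (SD, n = 3) lay on the 2 most abundant transcripts of the assembly. Over 3 libraries a two-sided sign-flip permutation test cannot go below p = 0.25, so values are given per library and as mean ± SD, with no test. The labels call the libraries independent but do not say whether they came from separate cultures, so the spread may be technical.

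Glycolysis splits glucose into pyruvate. Its early reactions spend ATP to make and cleave a doubly phosphorylated sugar, and its later reactions, from glyceraldehyde-3-phosphate dehydrogenase to pyruvate kinase, recover ATP and NADH. The pentose phosphate pathway branches off at glucose-6-phosphate: its oxidative reactions make NADPH, which fungi use for biosynthesis and for reducing glutathione and thioredoxin, and its non-oxidative reactions exchange carbon units between sugar phosphates through transketolase and transaldolase. In wood-decay fungi the glucose comes largely from plant cell wall polysaccharides. The matched entries are all from other fungi, so each enzyme name below is borrowed, and activity in V. comedens was not measured.

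The pathway had a small set of abundant, long transcripts and many short, rarely read ones. Short and rarely read transcripts were common among all matched ones too. At least 1000 bp was reached by 33.0% of the 106, against 39.5% of all matched transcripts. Fewer than 20 reads in all were held by 34 of the 106 and by 7458 of all 22605. Reads of the 106 transcripts made up 0.176% of library A, with an exact Clopper-Pearson 95% interval of 0.175 to 0.177. Their part of library B was 0.188% (0.187 to 0.189) and of library C 0.162% (0.161 to 0.163), where the intervals cover counting error alone because PCR copies carry no mark. Relative to the counts outside the 2 most abundant transcripts, the shares were 0.588%, 0.569% and 0.526% in libraries A, B and C. Levels are in RPKM, reads per kilobase of transcript per 1000000 counts. RPKM is relative to all counts of the library, so the amounts of mycelium and of RNA per cell were not measured. The median transcript of the pathway had 0.387 RPKM as a mean of 3 libraries, against 0.488 for all transcripts with a match. By library the direction changed: the pathway median was 0.655 against 0.589 in library A. It was 0.192 against 0.459 in library B and 0.258 against 0.454 in library C. An average of at least 10 RPKM was reached by 14 of the 106, or 13.2%, against a similar 10.8% of all matched transcripts. All 14 carried the name of an enzyme of the pathway and 13 were at least 1000 bp long. Among matched transcripts of at least 1000 bp in general, 18.5% reached 10 RPKM, and in the pathway 13 of 35 did.

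**Figure D1:**
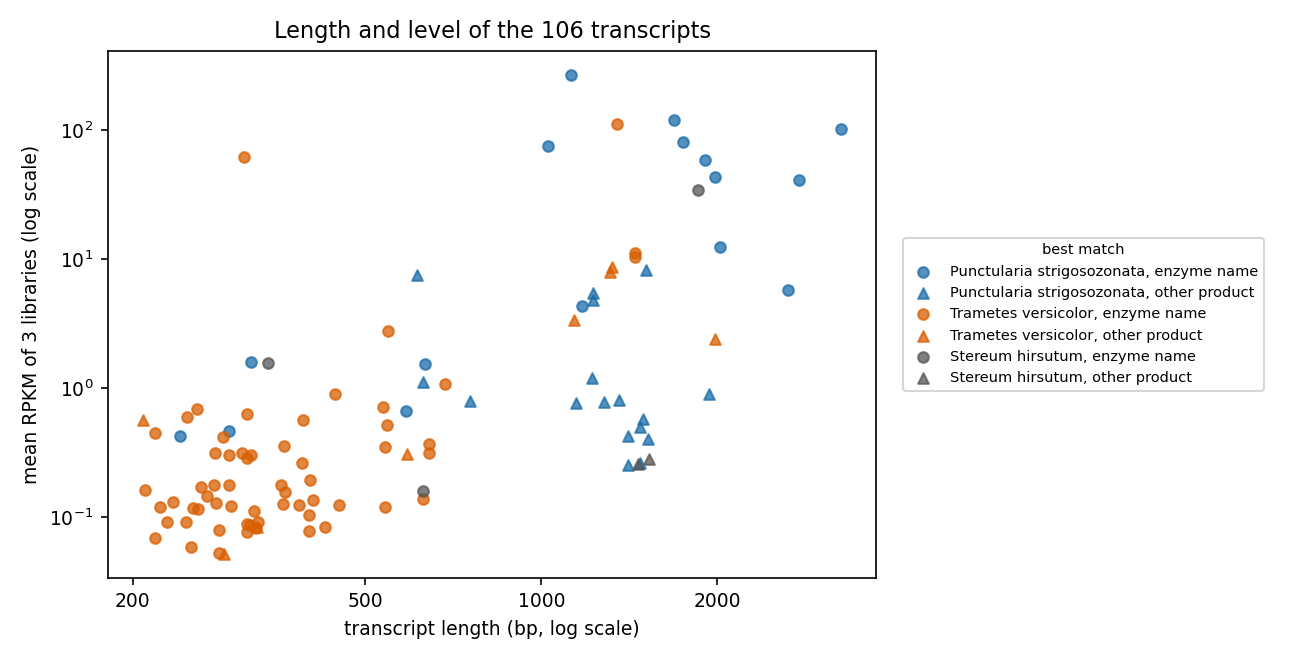
Length of each of the 106 transcripts (bp, log scale) against its mean RPKM over 3 libraries (log scale), coloured by the species of the best match, with circles for enzyme names and triangles for other products taken in by the words. The transcripts from 10 RPKM upwards lie at 1000 bp or more, apart from 1 isoform of 310 bp, and short Trametes versicolor matches lie below.

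Of the 15 enzymes looked for, 14 had at least 1 transcript and 13 had one of 1000 bp or more. The best match of this leading transcript was Punctularia strigosozonata, a fungus of the same order, for 10 of the 13, Trametes versicolor, a white-rot polypore, for 2 and Stereum hirsutum for 1. The leading assembler genes of the 13 enzymes comprised 15 transcripts. The other 64 transcripts with an enzyme name held 0.942% of the reads of all transcripts with such a name.

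Hexokinase, which phosphorylates glucose on entry, was represented by TRINITY_DN28916_c0_g1_i1 (2018 bp, matched to PUNSTDRAFT_64859) at 11.1 RPKM in library A, 10.8 in B and 15.0 in C (the order kept below), or 12.3 ± 2.32 (SD, n = 3). A shorter one, TRINITY_DN21641_c1_g2_i1 of 340 bp, had 1.57 ± 0.0952 (SD, n = 3). Library C stood above both others for the leading transcript. Phosphoglucomutase links glucose-6-phosphate with glucose-1-phosphate, the form used for glycogen and cell wall glucans. Its leading transcript TRINITY_DN28138_c1_g1_i1 had 57.0, 66.1 and 51.4 RPKM, or 58.2 ± 7.45 (SD, n = 3), above hexokinase in every library. Its next transcript, TRINITY_DN21092_c0_g2_i1 (443 bp), had 1.72, 0.265 and 0.703 RPKM.

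Phosphofructokinase makes fructose-1,6-bisphosphate and is the classical control point of glycolysis in yeast and animals. It had a single transcript, TRINITY_DN28698_c0_g1_i1 (2640 bp), read 1581 times in library A, 1397 in B and 690 in C. These amounted to 5.36, 7.76 and 4.07 RPKM, or 5.73 ± 1.88 (SD, n = 3), the lowest level of the 13 enzymes with a long transcript. Its highest library was 1.91-fold above its lowest, the widest spread among the sums of these 13 enzymes.

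Fructose-bisphosphate aldolase cleaves that sugar into a pair of triose phosphates. TRINITY_DN26918_c0_g1_i1 (1346 bp) reached 91.8, 131 and 110 RPKM, or 111 ± 19.6 (SD, n = 3). A shorter isoform of the same assembler gene, TRINITY_DN26918_c0_g1_i2 (310 bp), reached 48.9, 70.2 and 64.5 RPKM, or 61.2 ± 11.01 (SD, n = 3). Both isoforms were lowest in library A and highest in library B, and both matched T. versicolor. The sources used here do not give how a read fitting both isoforms was counted. Of 40007 reads on the 11 aldolase transcripts, 88.3% lay on the longer isoform and 99.4% on the assembler gene.

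No transcript was called glucose-6-phosphate isomerase at an appreciable level. The 3 transcripts of that name were 450 bp or shorter, all matched T. versicolor, and held 61, 2 and 0 reads in libraries A, B and C. The most abundant, TRINITY_DN17161_c0_g1_i1 of 319 bp, had 31, 1 and 0 reads. A count of 0 in library C allows up to 3 counts, or 0.0467 reads per 1000000 counts. A transcript of this enzyme under another product name, such as hypothetical protein, would not have been found. The word triosephosphate isomerase likewise matched 0 transcripts, but the database writes this enzyme as separate words. Under that spelling, looked up after the values had been seen, TRINITY_DN23439_c0_g1_i1 (1382 bp) had 38.8, 41.3 and 37.8 RPKM, or 39.3 ± 1.80 (SD, n = 3). It is not counted among the 106.

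In the later reactions of glycolysis, enolase and glyceraldehyde-3-phosphate dehydrogenase lay above the 2 kinases that form ATP. Glyceraldehyde-3-phosphate dehydrogenase, often taken as a reference gene, had TRINITY_DN25216_c0_g1_i1 (1027 bp, matched to PUNSTDRAFT_47090) at 76.0, 77.3 and 72.2 RPKM, or 75.1 ± 2.66 (SD, n = 3). It differed 1.07-fold between libraries, the smallest spread of the leading transcripts. A short second transcript, TRINITY_DN15464_c0_g4_i1 (318 bp), had 1.21, 1.38 and 2.15 RPKM. Enolase, which makes phosphoenolpyruvate, had TRINITY_DN30855_c0_g1_i1 (1688 bp, matched to PUNSTDRAFT_141433) at 121, 135 and 103 RPKM, or 120 ± 16.2 (SD, n = 3). Another transcript matched to the same entry, TRINITY_DN27929_c0_g1_i1 (1175 bp), was read far less, at 2.84, 4.42 and 5.72 RPKM. The order of the libraries differed between these enolase transcripts, with library C lowest for the first and highest for the second.

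Phosphoglycerate kinase, which forms ATP from 1,3-bisphosphoglycerate, had a pair of isoforms of nearly the same length. TRINITY_DN30265_c1_g1_i2 (1445 bp) had 12.7, 12.0 and 8.81 RPKM and TRINITY_DN30265_c1_g1_i1 (1446 bp) had 12.0, 11.1 and 7.76. Their sum was 21.4 ± 4.28 RPKM (SD, n = 3), and how a read fitting both isoforms was counted is not known. Pyruvate kinase, which forms ATP and pyruvate, had TRINITY_DN27695_c1_g1_i1 (1852 bp, matched to STEHIDRAFT_90006 of S. hirsutum) at 39.9, 35.6 and 26.7 RPKM, or 34.1 ± 6.74 (SD, n = 3). Both kinases were highest in library A and lowest in library C. The next pyruvate kinase transcript, TRINITY_DN18218_c0_g1_i1 (684 bp), had 1.78, 0.429 and 1.02 RPKM, with library A highest and library B lowest. Of the enzyme names, 10 transcripts were called glyceraldehyde-3-phosphate dehydrogenase, 7 phosphoglycerate kinase, 2 enolase and 8 pyruvate kinase.

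Pyruvate decarboxylase turns pyruvate into acetaldehyde, the first reaction of alcoholic fermentation in yeast. TRINITY_DN27981_c0_g1_i1 (1978 bp, matched to PUNSTDRAFT_97634) had 46.8, 42.9 and 40.7 RPKM, or 43.5 ± 3.06 (SD, n = 3). Summed over all transcripts of each name, pyruvate decarboxylase stood to pyruvate kinase as 1.11, 1.19 and 1.49 in libraries A, B and C, or 1.26 ± 0.200 (SD, n = 3). The ratio was above 1 in all 3 libraries and highest in library C, where pyruvate kinase was lowest.

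**Figure D2:**
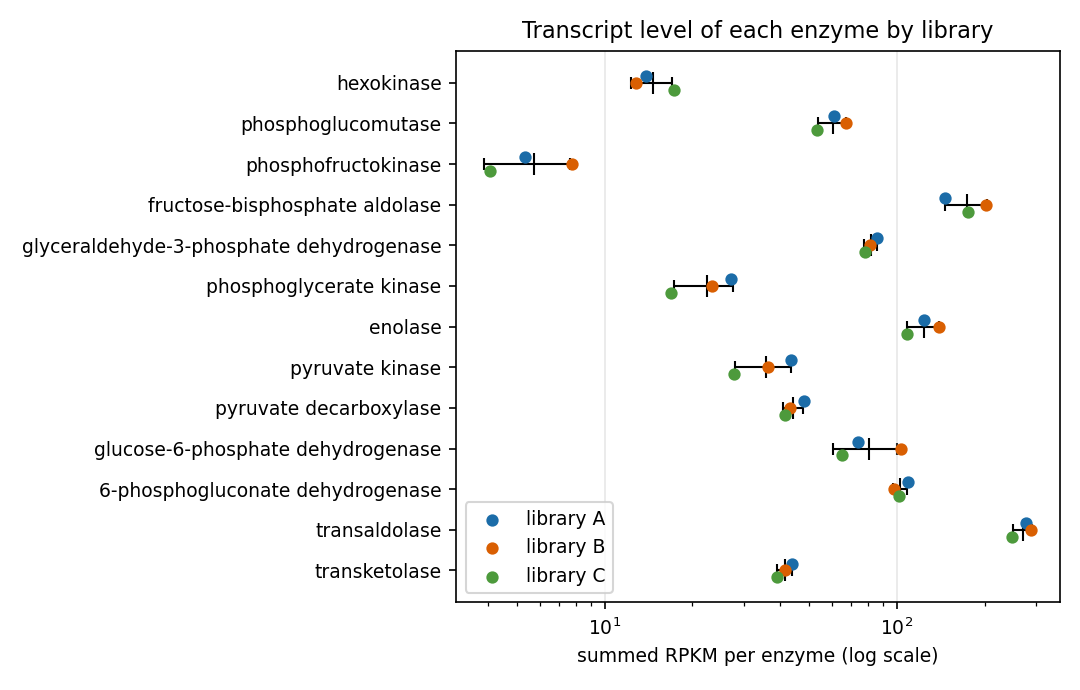
Summed RPKM of all transcripts of each enzyme (log scale) in libraries A, B and C (coloured points) with mean (black tick) and SD (bar, n = 3), for the 13 enzymes with a transcript of at least 1000 bp. Transaldolase lies highest, at 271 RPKM on average, and phosphofructokinase lowest, at 5.73.

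The pentose phosphate pathway had the most abundant transcript of all 106. Transaldolase, which moves a dihydroxyacetone unit between sugar phosphates, had TRINITY_DN24333_c0_g1_i1 (1122 bp, matched to PUNSTDRAFT_124465) read 33736 times in library A, 21983 in B and 17721 in C. These were 269, 287 and 246 RPKM, or 267 ± 20.9 (SD, n = 3), at percentile 99.6 of all matched transcripts. A further transaldolase transcript, TRINITY_DN20282_c0_g1_i1 (547 bp, a T. versicolor match), had 5.04, 0.644 and 2.56 RPKM and differed 7.83-fold between libraries. Transketolase, which moves glycolaldehyde units, had TRINITY_DN29755_c0_g1_i1 (2762 bp) at 42.9, 41.2 and 38.5 RPKM, or 40.9 ± 2.204 (SD, n = 3). The transaldolase transcript was thus above the transketolase transcript in each library, with ranges that did not overlap.

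The NADPH-forming dehydrogenases of the oxidative branch were both abundant, but they differed in spread. Glucose-6-phosphate dehydrogenase, which starts the branch, had a single transcript, TRINITY_DN24899_c0_g1_i1 (1748 bp, matched to PUNSTDRAFT_142604), at 73.6, 103 and 65.1 RPKM, or 80.6 ± 20.0 (SD, n = 3). The third enzyme of the branch, 6-phosphogluconate dehydrogenase, had TRINITY_DN27390_c0_g1_i1 (matched to PUNSTDRAFT_94690) at 107, 97.3 and 101 RPKM, or 102 ± 4.64 (SD, n = 3). The first was highest in library B, where the second was lowest. At 3259 bp, the second was the longest of the 106 transcripts. By reads without length it stood first, with 332 ± 15.6 CPM (reads per 1000000 counts) for the enzyme, against 302 ± 23.0 for transaldolase (SD, n = 3).

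Set in order of summed RPKM, the enzymes ran from transaldolase (271 ± 20.4, SD, n = 3) through aldolase (175 ± 28.3), enolase (124 ± 15.5), 6-phosphogluconate dehydrogenase (103 ± 5.78), glyceraldehyde-3-phosphate dehydrogenase (81.4 ± 4.04) and glucose-6-phosphate dehydrogenase (80.6 ± 20.0). Phosphoglucomutase (60.5 ± 6.87), pyruvate decarboxylase (44.2 ± 3.45), transketolase (41.3 ± 2.45), pyruvate kinase (35.8 ± 7.80), phosphoglycerate kinase (22.4 ± 5.09), hexokinase (14.7 ± 2.33) and phosphofructokinase (5.73 ± 1.88) followed. The neighbours glyceraldehyde-3-phosphate and glucose-6-phosphate dehydrogenase had overlapping ranges and changed places in 1 library, as did phosphoglycerate kinase and hexokinase. Ranges also overlapped between enolase and 6-phosphogluconate dehydrogenase, between glucose-6-phosphate dehydrogenase and phosphoglucomutase, and from pyruvate decarboxylase through transketolase to pyruvate kinase, although the order there was the same in all 3 libraries. The remaining neighbours had ranges that did not overlap. The place of aldolase rests on its short isoform: without it, an alternative chosen after seeing the data, its sum averaged 114 RPKM, below enolase. Counting only the most abundant transcript of each enzyme, phosphoglycerate kinase averaged 11.2 RPKM, below hexokinase at 12.3. The phosphoglycerate kinase isoforms hold nearly equal parts of the reads, so its place depends on how reads fitting both were counted, which is not known.

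By branch, the non-oxidative pentose phosphate enzymes held 27.9% ± 0.625 of the summed RPKM of the 106 transcripts and the oxidative ones 16.4% ± 0.245 (SD, n = 3). The later reactions of glycolysis held 23.6% ± 1.34, its early reactions 17.5% ± 2.25 and phosphoglucomutase 5.39% ± 0.206 (SD, n = 3). The oxidative share had a small spread although glucose-6-phosphate dehydrogenase was highest in library B, where 6-phosphogluconate dehydrogenase was lowest. Pentose phosphate enzymes stood to glycolytic enzymes as 1.12, 1.05 and 1.06 in libraries A, B and C, or 1.08 ± 0.0387 (SD, n = 3). The ratio was 1.50 with reads summed without the length and 2.21 among P. strigosozonata matches alone, which hold no aldolase, phosphoglycerate kinase or pyruvate kinase. Later stood to early glycolytic enzymes as 1.68, 1.25 and 1.17, or 1.37 ± 0.269 (SD, n = 3), and at 1.98 without the short aldolase isoform. The early sums of 167, 224 and 197 RPKM lack triose phosphate isomerase, which the words missed and which summed to 40.5, 41.5 and 38.3. The later sums were 280, 280 and 231 RPKM. Counting triose phosphate isomerase alone would lower this ratio and put the early sum above the later one in library C. Cofactor-independent phosphoglycerate mutase, also outside the words, summed to 22.1, 19.2 and 13.6 and would raise it. Oxidative stood to non-oxidative enzymes as 0.571, 0.609 and 0.581, or 0.587 ± 0.0197 (SD, n = 3). That last ratio turned to 1.14 with reads summed without the length, so which of the branches leads depends on the length of the transcripts.

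The leading assembler genes varied between libraries within the range of long transcripts in general. Per count outside the 2 most abundant transcripts, the ratio of library B to library A was 0.808 to 1.31 over the 13 enzymes, with the lowest for pyruvate kinase and the highest for phosphofructokinase. Over all 8526 matched transcripts of at least 1000 bp and 100 reads its median was 1.01 and its central 80% ran from 0.671 to 1.42. The ratio of library C to library A was 0.651 to 1.31, with the lowest for pyruvate kinase and the highest for hexokinase, against a median of 0.944 and a central 80% from 0.629 to 1.39. All 13 enzymes lay inside the central 80% for both ratios, and 7 and 8 lay inside the central 50%. Below the median were 8 of the 13 for library B and 11 for library C. The comparison is loose: the leading genes sum isoforms and held at least 3668 reads each. The reference set holds single transcripts with a median of 1229.5 reads, so its range may include more counting noise. Phosphofructokinase (1.31), aldolase (1.30) and glucose-6-phosphate dehydrogenase (1.27) were above the upper quartile of 1.21 for library B, while pyruvate kinase (0.808), 6-phosphogluconate dehydrogenase (0.828) and pyruvate decarboxylase (0.8313) were below the lower quartile of 0.8315. Pyruvate kinase (0.651), phosphoglycerate kinase (0.655) and phosphofructokinase (0.739) were below the lower quartile of 0.776 for library C, while hexokinase (1.31) and aldolase (1.18) were above the upper quartile of 1.15.

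**Figure D3:**
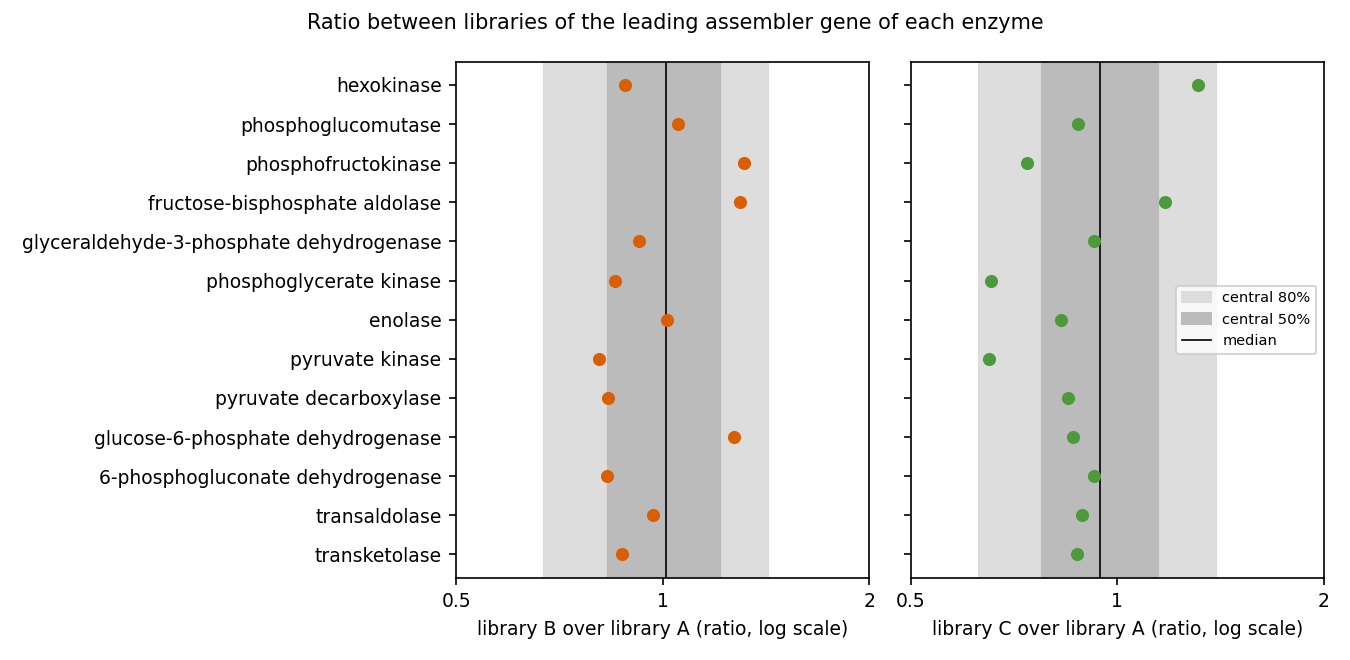
Ratio of library B (left) and library C (right) to library A (log scale), per count outside the 2 most abundant transcripts, for the leading assembler gene of 13 enzymes (points). Grey bands and the line show the central 80%, central 50% and median over 8526 matched transcripts of at least 1000 bp and 100 reads, and all 13 points lie inside the wider band.

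The remaining transcripts with enzyme names were mostly short and rarely read. Of the 64 outside the leading assembler genes, 63 were under 1000 bp and 56 had a T. versicolor match. Their median level was 0.174 RPKM and the highest was the second enolase transcript at 4.33. They summed to 20.8, 9.49 and 13.9 CPM in libraries A, B and C, and library A was the highest for 25 of the 32 with at least 20 reads. Library A was the highest for 36% of all matched transcripts with as many reads and for 68.2% of T. versicolor matches under 1000 bp, the kind most of these are. Whether these transcripts come from V. comedens was not tested.

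Over all 106, at least 20 reads were reached by 72, and a transcript read mainly in 1 library could pass through that library alone. Of the 72, 38 (52.8%) differed by more than 2-fold between libraries, against 32.1% of all matched transcripts of at least 20 reads. Among those of at least 1000 bp it was 6 of 35, against 14.6% of such transcripts in general. Among T. versicolor matches under 1000 bp it was 26 of 27, against 75% of such transcripts in general. The 6 long ones were the second enolase transcript and 5 isoforms of TRINITY_DN28189_c0_g1, whose product carries a transketolase domain, and none reached 10 RPKM. With library A left out, 9 transcripts differed by more than 2-fold. Library A alone held over 90% of the depth-scaled reads of 4 of the 72 (5.56%), against 2.82% of all matched transcripts of at least 20 reads, and libraries B and C of 0 each. The number past 90% in 1 library was 1 without library A, 8 without library B and 11 without library C. For these counts with a library left out, no share over all matched transcripts is given. Of the 4, 3 were T. versicolor matches under 1000 bp, among 27 such transcripts of at least 20 reads, against 14% of such transcripts in general. They were TRINITY_DN21092_c0_g1_i1 of phosphoglucomutase with 34, 0 and 0 reads, TRINITY_DN16920_c0_g2_i1 of pyruvate kinase with 29, 0 and 0, and the isomerase transcript with 31, 1 and 0. The fourth, TRINITY_DN16920_c0_g1_i1 of pyruvate kinase, matched S. hirsutum and had 30, 2 and 0 reads. Its share in library A was 90.1%, close to the cut-off. The pyruvate kinase pair had the same length and assembler cluster and may share reads, and such small numbers leave the shares imprecise.

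**Figure D4:**
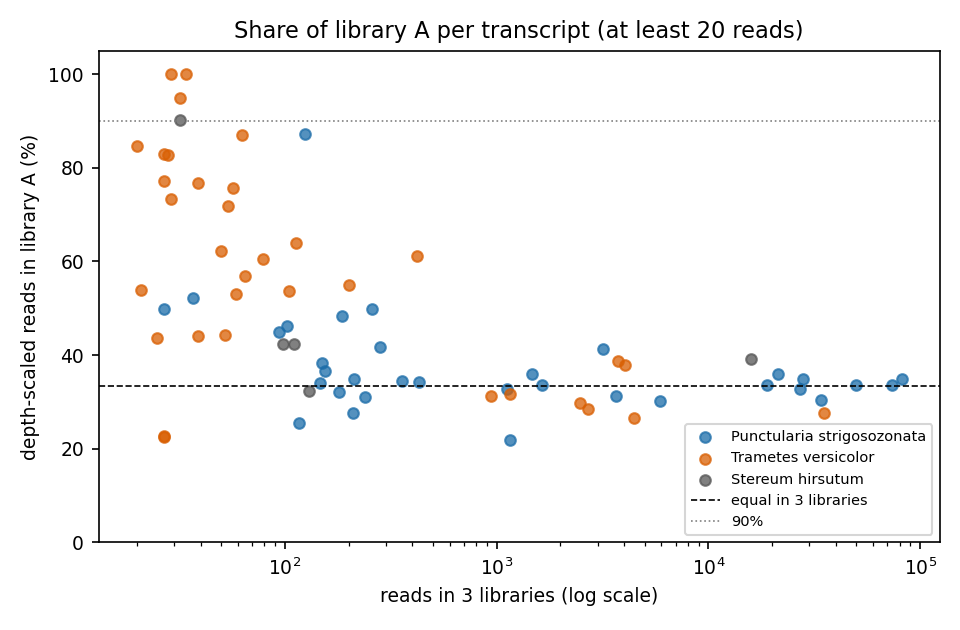
Reads in 3 libraries (log scale) against the share of depth-scaled reads in library A (%), for the 72 transcripts with at least 20 reads, coloured by the species of the best match, with lines at an equal share and at 90%. The most read transcripts lie near the equal share, and the 4 above 90% have 29 to 34 reads.

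Among transcripts of at least 100 reads, the ratio between libraries was widest for TRINITY_DN18603_c0_g2_i1 (587 bp), a glyceraldehyde-3-phosphate dehydrogenase transcript matched to the same P. strigosozonata entry as the leading one. It had 114, 8 and 2 reads in libraries A, B and C, a 32.8-fold difference in depth-scaled reads. A P. strigosozonata match therefore did not by itself go with an even share. The narrowest ratio, 1.04-fold, was that of TRINITY_DN23525_c0_g2_i1, called 6-phosphogluconate dehydrogenase C-terminal domain-like protein, at 0.805, 0.776 and 0.782 RPKM. An isoform of the same assembler gene, TRINITY_DN23525_c0_g2_i3, was higher in library A than in library C, at 1.01, 0.788 and 0.619 RPKM.

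The words also took in 27 transcripts whose product is not an enzyme of the pathway by name. None of them averaged 10 RPKM over the 3 libraries, though single libraries could lie above it. Summed over its 2 isoforms, the assembler gene TRINITY_DN26115_c0_g1 averaged 16.5 ± 2.59 RPKM (SD, n = 3). Enolase C-terminal domain-like proteins, relatives of enolase by fold, had 7 transcripts that summed to 28.4 ± 1.79 RPKM (SD, n = 3), led by TRINITY_DN26115_c0_g1_i2 at 7.36, 7.85 and 10.6 RPKM and TRINITY_DN27427_c0_g1_i1 at 10.3, 7.31 and 7.27. The 6-phosphogluconate dehydrogenase family protein had 3 isoforms with a sum of 17.8 ± 2.79 (SD, n = 3), led by TRINITY_DN27255_c0_g1_i3 at 7.48 ± 0.832 and TRINITY_DN27255_c0_g1_i1 at 5.45 ± 1.03 RPKM (SD, n = 3). The dihydroxy-acid and 6-phosphogluconate dehydratase, a name shared with branched-chain amino acid synthesis, had isoforms TRINITY_DN22575_c0_g1_i2 at 3.39 ± 0.740 and TRINITY_DN22575_c0_g1_i1 at 2.40 ± 0.638 (SD, n = 3). The dehydrogenase E1 and transketolase domain-containing protein 1 had 8 transcripts with a sum of 2.97 ± 0.833 RPKM (SD, n = 3), the highest being TRINITY_DN1319_c0_g1_i1 at 0.580 and TRINITY_DN28189_c0_g1_i3 at 0.503. The 6-phosphogluconate dehydrogenase C-terminal domain-like proteins summed to 3.22 ± 0.166 and the phosphoglucomutase first 3 domain-containing proteins, led by TRINITY_DN13480_c0_g1_i1 of 208 bp, to 0.620 ± 0.178 RPKM (SD, n = 3). These products together made up 5.25% ± 0.149 (SD, n = 3) of the summed RPKM of the 106.

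Other products of the same pathways, outside the 15 words, covered further reactions. Cofactor-independent phosphoglycerate mutase, which acts between phosphoglycerate kinase and enolase, had TRINITY_DN26844_c0_g1_i1 (2344 bp) at 20.6, 19.02 and 13.1 RPKM, or 17.5 ± 3.95 (SD, n = 3). It was highest in library A and lowest in library C. The leading transcripts of both ATP-forming kinases, pyruvate decarboxylase, transketolase and ribulose-5-phosphate 3-epimerase had the same order. With 3 libraries, such a shared order carries no reading. In the oxidative branch, 6-phosphogluconolactonase had 7 transcripts that summed to 19.6 ± 3.96 (SD, n = 3), none averaging 10 RPKM. In the non-oxidative branch, ribulose-5-phosphate 3-epimerase had TRINITY_DN27695_c0_g1_i1 (790 bp) at 50.2, 50.1 and 45.1 RPKM, or 48.5 ± 2.95 (SD, n = 3). Ribose-5-phosphate isomerase, which forms ribose-5-phosphate, had 2 transcripts with 23 reads in all.

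At the branch points around pyruvate and triose phosphate, pyruvate carboxylase, which replenishes oxaloacetate, had TRINITY_DN27854_c1_g1_i1 (4277 bp) at 20.7, 27.0 and 22.3 RPKM. Products named pyruvate dehydrogenase, which feed the citric acid cycle, summed to 54.8 ± 0.700 RPKM (SD, n = 3) over 14 transcripts. Glycerol-3-phosphate dehydrogenase had TRINITY_DN28378_c0_g1_i1 at 12.4 ± 1.41 RPKM and phosphoketolase, which splits xylulose-5-phosphate, TRINITY_DN29613_c0_g1_i1 at 4.88 ± 1.003 (SD, n = 3). The 9 transcripts of the enzyme that makes and breaks fructose-2,6-bisphosphate, an activator of phosphofructokinase in animals and yeast, summed to 23.3 ± 4.16 RPKM (SD, n = 3). Mannitol enzymes were led by the mannitol dehydrogenase TRINITY_DN39801_c0_g1_i1 at 63.5, 46.2 and 102 RPKM, with library C highest. Products named for gluconeogenesis were scarce, with 61 reads on 2 transcripts of fructose-1,6-bisphosphatase and 66 reads on 3 of phosphoenolpyruvate carboxykinase. For these and for ribose-5-phosphate isomerase the highest transcript was a T. versicolor match at under 1 RPKM, and a transcript under another name would have been missed. Phosphoglycerate mutase without further name summed to 4.83 ± 1.49 RPKM, phosphoglycerate mutase-like proteins, a broad phosphatase fold, to 220 ± 3.16 over 42 transcripts, and products named acetyl-CoA synthetase to 168 ± 28.1 over 73 (SD, n = 3).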

How the data were processed

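RNA-seq of 3 libraries of 1 group was analysed. The deposited table holds, for each assembled transcript, its length and raw read counts in 3 columns without names, which the authors had not normalised. The columns could be tied to the group but not to a replicate number. Per the submitters' processing notes the tools were cutadapt 1.2.1, SAMtools 0.1.19 and Bowtie2 2.2.6, with no role or order stated. The library kit marks strand per the labels' protocols, but the assembler, the counting rule and whether counts used strand were not stated in those sources. The authors' annotation table gives 1 best match per transcript, taken per the file headers from a database of the authors' own. Repeated lines were dropped.

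RPKM is the count divided by all counts of the library, times 1000000, and by length in kilobases. CPM leaves out the length. Sums, means, SDs and ratios were computed with pandas 2.3.3. Named transcripts are the 2 highest of each product of at least 300 bp and 100 reads, or the highest where none qualified, plus the widest and narrowest ratio between libraries. Others singled out were chosen after their values were seen. The members and lists were chosen with earlier results of these data known. Alternatives used edgeR 4.0.16 (TMM) and DESeq2 1.42.0 for scaling. On simulated counts for 81106 transcripts, 200 of 200 matched transcripts of at least 100 reads planted in library A were called past 90%. Of the others, 0 of 11255 with at least 100 reads and 0 of 3348 with 20 simulated reads or more but fewer than 100 deposited reads were called. Planted transcripts of fewer reads were not simulated. The other transcripts were given 1 level common to all libraries with a preset spread, and the planted ones lay well past 90%. In the deposited counts, 14% of T. versicolor matches under 1000 bp with at least 20 reads were past 90% in library A. The simulated spread was therefore not that of such transcripts, and the 0 calls give no error rate for them. Counts of each pair of libraries differed by more than sampling noise (median chi-square per transcript 3.42 to 3.85), so no column repeats another. They are taken as 3 libraries, but this cannot show whether they came from separate cultures. No sequences of the transcripts are shown, since none were in the files used here.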

Additional observations from a re-analysis of the deposited data

How the results depend on the processing

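Depth was also scaled by counts outside the 2 most abundant transcripts, by TMM and by DESeq2. The summed RPKM of the pathway (1119 ± 86.8, SD, n = 3) and the 14 enzyme sums moved by less than 1 SD. The 4 ratios could not move, since the scale of a library cancels in them. The order of libraries could change. Outside those 2 transcripts, the leading transaldolase gene stood at 0.969 in B relative to A, although its RPKM was higher in B. Leaving out 1 of 3 libraries cannot move a mean by 1 SD, so only its ranges are given: 1076 to 1162 for the summed RPKM, 1.06 to 1.09, 1.21 to 1.46, 0.576 to 0.595 and 1.15 to 1.34 for the ratios in the order below. The isomerase sum was 0.0393 RPKM without library A, against 0.573 with all 3. With the most abundant transcript only, 4 of 14 enzyme sums moved by over 1 SD: hexokinase to 12.3, aldolase to 111, glyceraldehyde-3-phosphate dehydrogenase to 75.1 and phosphoglycerate kinase to 11.2. The summed RPKM was 983 with the most abundant transcript of each product only, 849 among P. strigosozonata matches and 1751 CPM without the length. Pentose phosphate to glycolysis (1.08) was 1.50 without the length, 1.33 with the most abundant transcripts, 1.28 from 500 bp, 2.21 among P. strigosozonata matches and 1.25 without the aldolase isoform of 310 bp. Later to early glycolysis (1.37) was 1.85, 1.89, 2.04, 11.4 and 1.98 in the same settings. Oxidative to non-oxidative (0.587) was 1.14 without the length. Pyruvate decarboxylase to pyruvate kinase (1.26) stayed within 1 SD in every setting that gave a value, though depth scaling could not move it. P. strigosozonata matches gave none. The 38 transcripts differing over 2-fold were 11 of 45 from 100 reads, 19 from 500 bp and 9 to 26 with a library left out, with 9 without library A. Among P. strigosozonata matches they were 9 of 33, or 27.3%, near the 22.1% of all such matches of at least 20 reads. The 4 with over 90% of reads in 1 library were 3 with TMM and 3 with DESeq2 scaling. They were 15 from 10 reads, 0 from 100 reads, 2 from 500 bp and 0 among P. strigosozonata matches. With a library left out they were 1 to 11, with 1 without A, 8 without B and 11 without C. With 2 libraries, an even split is 50% each, so these counts are not on the same footing. Apart from the P. strigosozonata share above, no share over all matched transcripts is given for these settings. Their counts therefore carry no reading about the pathway. The causes were not tested. No paired analysis was possible because there is 1 group. Low counts limit 34 of the 106 transcripts, which had fewer than 20 reads in all, as did 7458 of all 22605 matched ones. Of the 106, 29 were at 0 in library B and 29 in library C. No share over all matched transcripts is given for these counts by single library. In both of these libraries, 19 of the 106 were at 0, as were 4006 of all matched ones.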
